A study of Mus musculus with 2 samples.

Results

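The cells described here are 250 epithelial cells of the embryonic mouse lung that carried messages for surfactant proteins at embryonic day 15, before alveoli exist. They were taken from 1 control library of lung epithelial cells purified by flow sorting and profiled with droplet-based 3′ single-cell RNA-seq, in which every captured transcript carries a unique molecular identifier (UMI). The study set a control library beside a library with the LEF/TCF transcription factors knocked out, 1 library each at embryonic day 15. The labels give the first only as control, without strain, sex, Cre driver or number of embryos, and the expression values of the knockout library were not analysed here. Its list of 5342 barcodes shared 29 with the 3568 barcodes of the control library, and none of the 29 belonged to the 250 cells.

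Of the 3568 control barcodes, 3179 were kept because they had at least 1000 genes, at most 10% mitochondrial UMIs and at most 30000 UMIs. The library held 53789893 UMIs, of which the kept cells held 42265360. A cell was eligible if it had no UMI of the airway genes Sox2 and Scgb3a2, no UMI of the alveolar type 1 gene Ager, and at least 1 UMI each of Epcam, an epithelial adhesion molecule, and Sftpa1, the gene of surfactant protein A. This left 333 cells, ranked by their summed level of Sftpa1, Sftpb, Sftpd and Lamp3 in CPM (UMIs scaled to 1000000 in each cell), and the first 250 were taken. The members were thus chosen by measured UMIs of Sox2, Scgb3a2, Ager, Epcam, Sftpa1, Sftpb, Sftpd and Lamp3. They were 75.1% of the eligible cells and 7.86% of the kept cells. The summed level ran from 1619.65 CPM in the first cell over a median of 246 CPM to 116.04 CPM in the last. The last cell taken had 2 UMIs of the ranking genes among 17235, and the first cell left out had 1 among 8653, which is 115.57 CPM, so the border of the group rests on single molecules.

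Alveolar type 2 cells make, store and secrete pulmonary surfactant, a film of phospholipid and surfactant proteins that lowers surface tension in the air space. They package it in lamellar bodies, lysosome-related organelles. Before birth these cells arise from the distal tips of the branching airway, where SOX9-positive and ID2-positive progenitors also give rise to the flat alveolar type 1 cells. The transcription factor NKX2-1 is known to activate surfactant protein genes, and SP-B and SP-C are cut from precursors in several steps in which cathepsin H and napsin A take part.

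The 250 cells held 3483 to 29399 UMIs each, with a median of 12917, and 3362235 UMIs together. The other 2929 kept cells had a median of 12043 UMIs and the 1015 other distal cells, which met the Sox2, Scgb3a2, Ager and Epcam conditions but were not chosen, a median of 10905. Mitochondrial genes took a median of 2.62% of UMIs in the 250 cells and 2.78% in the other distal cells, and ribosomal protein genes took 32.5% and 34.6% of the pooled UMIs. With 1 library no difference could be tested across animals: every interval below is an exact 95% interval for counting error only, levels are CPM of the pooled UMIs, and a ratio is the level in the 250 cells over that in the comparison cells. A gene was compared if it reached 10 CPM over all kept cells, and a ratio past 1.5 in either direction was taken as the mark of a difference in size.

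The 4 ranking genes chose the cells, so their levels are given as a description. Sftpa1 had 1 to 12 UMIs per cell with a median of 2, and 100 of the 250 cells had 1 UMI. Sftpb, whose product spreads the surfactant film, was detected in 171 cells. Lamp3, a lysosomal membrane protein of lamellar bodies, was detected in 36 cells with at most 2 UMIs. Sftpd, which encodes the collectin surfactant protein D, had no UMI in any of the 250 cells, which allows 0.892 CPM. Sftpa1 made up 61.7% of the ranking UMIs, Sftpb 34.4% and Lamp3 3.91%. One ranking gene was detected in 69 cells, 2 in 155, 3 in 26 and all 4 in none, and 17 cells rested on a single Sftpa1 UMI. Sftpa1 and Sftpb together therefore set the rank of most cells.

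**Figure D1:**
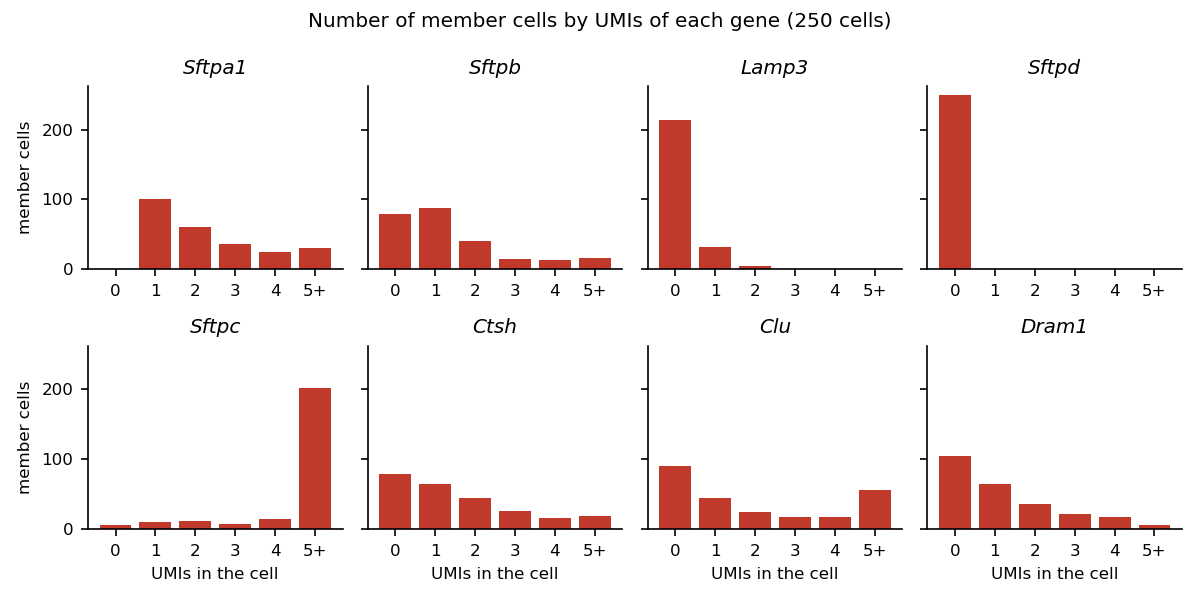
Bars give the number of the 250 member cells (vertical axis) by the UMIs of each gene in the cell (horizontal axis), with Sftpa1, Sftpb, Lamp3 and Sftpd from the ranking in the top row and Sftpc, Ctsh, Clu and Dram1 below. Sftpa1 stood at 1 UMI in 100 cells, Sftpd at 0 in all 250, and Sftpc at 5 or more in 202.

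In mouse build GRCm38, Sftpa1 occupies bases 41131782 to 41136452 of chromosome 14 and Sftpb bases 72304610 to 72314371 of chromosome 6, both on the plus strand, while Lamp3 occupies bases 19653378 to 19706375 of chromosome 16 on the minus strand (GENCODE M21). Dlk1, one of the 15 genes named below as highest by ratio, occupies bases 109452823 to 109463336 of chromosome 12, also on the plus strand. The 250 bases before the RefSeq start of each (GRCm38.p6) are shown because the first 3 genes define the cells and Dlk1 was not part of the choice. Capitals mark, on either strand, CAAGTG or CTCAAG, cores of NKX2-1 binding sequences, and TGTTTAC, a core of forkhead (FOXA) binding sequences. They cover chr14:41131538-41131787, chr6:72304360-72304609, chr16:19706366-19706615 and chr12:109452573-109452822.
Sftpa1: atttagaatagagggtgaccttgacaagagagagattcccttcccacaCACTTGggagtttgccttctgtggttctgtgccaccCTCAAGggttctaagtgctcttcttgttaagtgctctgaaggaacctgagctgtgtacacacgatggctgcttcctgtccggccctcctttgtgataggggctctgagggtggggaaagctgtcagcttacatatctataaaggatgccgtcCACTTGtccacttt
Sftpb: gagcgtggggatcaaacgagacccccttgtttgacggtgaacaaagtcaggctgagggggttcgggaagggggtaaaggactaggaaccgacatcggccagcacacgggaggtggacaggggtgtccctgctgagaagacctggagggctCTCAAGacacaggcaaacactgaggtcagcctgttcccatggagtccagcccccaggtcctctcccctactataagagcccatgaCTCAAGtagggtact
Lamp3: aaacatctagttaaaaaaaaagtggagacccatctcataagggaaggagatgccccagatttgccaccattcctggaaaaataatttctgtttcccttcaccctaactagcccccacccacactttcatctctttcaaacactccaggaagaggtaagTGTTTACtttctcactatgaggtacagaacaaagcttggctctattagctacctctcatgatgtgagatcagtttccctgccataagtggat
Dlk1: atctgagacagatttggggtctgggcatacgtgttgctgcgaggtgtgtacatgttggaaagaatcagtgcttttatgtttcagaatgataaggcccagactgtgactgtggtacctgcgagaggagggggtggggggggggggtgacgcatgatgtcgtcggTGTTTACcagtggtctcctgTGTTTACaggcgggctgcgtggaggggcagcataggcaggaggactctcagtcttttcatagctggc
The Sftpa1 window held CAAGTG at 2 places, both on the minus strand, and CTCAAG at 1. The Sftpb window held CTCAAG at 2 places, the nearer ending 10 bases before the start. Neither held TGTTTAC, which stood at 1 place in the Lamp3 window and 2 in the Dlk1 window. Among 32817 RefSeq promoter windows of this length, CAAGTG was present in 11.6%, CTCAAG in 13.3% and TGTTTAC in 3.16%. These are letter matches and not measured binding sites.

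Detection was also read after every cell was thinned to 5000 UMIs. This left out 1 of the 250 cells and 32 of the other distal cells. Thinning evens out depth but does not undo the choice of cells. Members had to carry a Sftpa1 UMI, and other distal cells are the gated cells left after the 250 were taken. The Sftpa1 shares of members and of other distal cells therefore follow from the rule and only describe them. Sftpa1 was then detected in 65.1% of members (58.8 to 71.0), in 14.8% of 1081 Ager-positive distal cells (12.7 to 17.1) and in 3.76% of 983 other distal cells (2.66 to 5.15). In Sox2-positive cells, the airway part of the library, it was 2.50% of 559 (1.38 to 4.17). In cells without Epcam but with at least 3 collagen UMIs it was 0 of 37, which allows up to 8.11%. Without thinning the shares were 100% by the rule, 27.7%, 8.18%, 5.31% and 0%, at median depths of 12917, 13994.5, 10905, 11978.5 and 7788.5 UMIs. Sftpa1 messages were therefore also present in distal cells that carried Ager, at a thinned share above that of the airway cells.

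The 2 markers of the label that the rule did not use were both higher in the 250 cells. Ctsh (ENSMUSG00000032359), the gene of cathepsin H, was detected in 171 of the 250 cells, with a median of 1 UMI and a highest of 19. Its pooled level was 131 CPM against 58.6 CPM in all other kept cells, a ratio of 2.24 (2.02 to 2.48), and 61.0 CPM in other distal cells, a ratio of 2.15 (1.91 to 2.42). Clu, the gene of the secreted chaperone clusterin, was detected in 160 cells with at most 27 UMIs. Its level was 235 CPM against 147 CPM in all other kept cells, a ratio of 1.60, and 162 CPM in other distal cells, a ratio of 1.45 (1.34 to 1.58). After thinning, Ctsh was detected in 42.2% of members, 22.9% of other distal cells, 25.7% of Ager-positive distal cells and 13.8% of Sox2-positive cells. Clu was detected in 45.4%, 32.6%, 45.6% and 9.84% of the same groups, so its share in members was near that of Ager-positive distal cells.

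Genes of the type 2 cell outside the rule ranged from no UMI to detection in nearly all of the 250 cells. Sftpc, the gene of surfactant protein C and the earliest of the surfactant genes in lung development, had 7194 UMIs in the 250 cells and was detected in 244 of them, with a median of 16 UMIs and a highest of 235. Its level was 2139.65 CPM against 1187 CPM in other distal cells, a ratio of 1.80 (1.75 to 1.85), and 1885 CPM in Ager-positive distal cells. Lyz2, S100g and Chil1 had no UMI, Hc had 1, and Slc34a2, the phosphate transporter of type 2 cells, had 2. Napsa, the gene of napsin A, had 11 UMIs in 10 cells, 3.27 CPM against 0.67 CPM in other distal cells, a ratio of 4.87 with the wide interval of 1.78 to 13.9. Abca3, the lipid transporter of lamellar bodies, had 37 UMIs, 11.005 CPM against 7.64 CPM, a ratio of 1.44 (0.95 to 2.13). Lpcat1, which remodels surfactant phospholipid, stood at 43.7 CPM against 35.6 CPM, a ratio of 1.23 (1.01 to 1.48). By these values the cells are Sftpa1-positive distal epithelial cells that carried part of the type 2 genes. Sftpc, Ctsh and Lpcat1 were detected in 244, 171 and 106 of them, whereas Lyz2, S100g, Chil1, Hc and Slc34a2 had at most 2 UMIs each. Sftpc and Lpcat1 were also detected in like cells. After thinning to 5000 UMIs, Sftpc was found in 92.8% of members, 73.6% of other distal cells and 85.4% of Ager-positive distal cells. Lpcat1 was found in 20.1%, 17.1% and 16.3% of the same groups. Of the type 2 genes listed outside the rule, 8 of 15 surfactant and lamellar body genes and 13 of 26 others reached the minimum of 10 CPM over all kept cells.

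**Figure D2:**
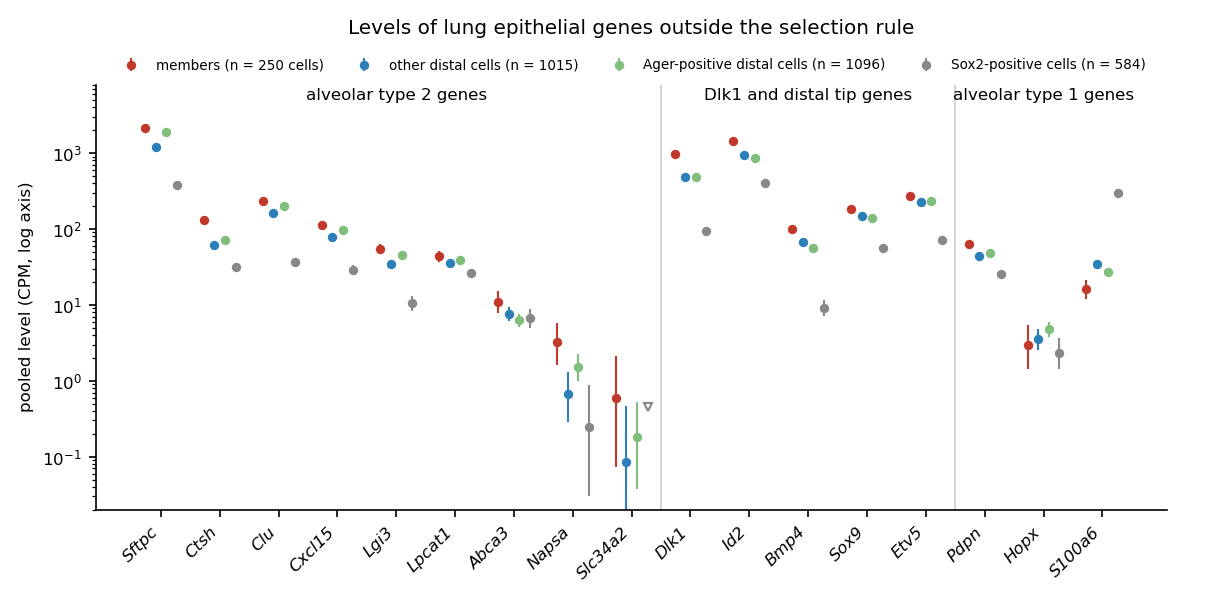
Points give the pooled level of each gene in CPM on a log axis, with exact 95% counting intervals, in the 250 members, 1015 other distal cells, 1096 Ager-positive distal cells and 584 Sox2-positive cells; an open triangle is the upper limit where no UMI was found. Ctsh, Dlk1, Id2 and Bmp4 are highest in members, Napsa and Slc34a2 lie below 4 CPM in every group, and S100a6 is highest in Sox2-positive cells.

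Against all other kept cells, 77 of the 6812 compared genes had a ratio of at least 1.5 (1.13%) and 325 a ratio of at most 1/1.5 (4.77%). Against other distal cells, the comparison that leaves out cells with a Sox2, Scgb3a2 or Ager UMI, these were 101 genes (1.48%) and 158 genes (2.32%). Of the higher genes 52 were in both sets, 67.5% of the first and 51.5% of the second, and of the lower genes 150, which is 46.2% and 94.9%; both comparisons share the 250 cells. The sets include the genes of the rule. The median log2 ratio over all compared genes was -0.02 and 0.04 in the 2 comparisons. The genes below were named for the size of their ratio, so their ratios are descriptions of these cells. Every order by ratio given from here on leaves out the 4 ranking genes, the gate genes Sox2, Scgb3a2, Ager and Epcam, and genes with 25% or more of their member UMIs in 1 cell.

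Dram1, which encodes a lysosomal membrane protein of the autophagy pathway, had the highest ratio against all other kept cells among the genes so ordered. It had 306 UMIs in 146 of the 250 cells, 91.0 CPM against 33.7 CPM, a ratio of 2.70 (2.38 to 3.06), and 41.3 CPM in other distal cells, a ratio of 2.20. Pthlh, the gene of parathyroid hormone-related protein, a signal from lung epithelium to mesenchyme, followed at 116 CPM against 43.3 CPM and 59.8 CPM, ratios of 2.68 and 1.94. It was detected in 123 cells with up to 18 UMIs, so 127 of the 250 cells had none. Cthrc1, which encodes a secreted glycoprotein, stood at 96.7 CPM against 36.6 CPM and 40.6 CPM, ratios of 2.64 and 2.38, the latter the highest against other distal cells in the same order. Dlk1, a transmembrane protein of the Notch ligand family, was detected in 243 of the 250 cells, with a median of 10.5 UMIs and a highest of 54. Its level was 971 CPM against 398 CPM and 490.4 CPM, ratios of 2.44 and 1.98 (1.90 to 2.07). Egfl6, which encodes a secreted protein with EGF repeats, was detected in 146 cells, with ratios of 2.16 and 2.001. The other genes of the 15 highest were Cox4i2, Rgcc, Adamts18, Pcsk6, St6galnac6, Gas6, Glrx, Tmem59l and Thbd. They include Gas6, a ligand of TAM receptors, Pcsk6, a proprotein convertase, and Thbd, the thrombin receptor thrombomodulin. The ratios of these genes against all other kept cells ran from 2.10 to 2.45 on 68 to 135 UMIs each. Of them, Tmem59l and Rgcc were also among the 10 highest against other distal cells, at 1.93 and 1.87.

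Most genes with the lowest ratios were sparse in the 250 cells. Smoc2, which encodes a matricellular protein, had 44 UMIs in 35 cells, 13.1 CPM against 81.1 CPM in all other kept cells and 56.9 CPM in other distal cells, ratios of 0.161 and 0.230. S100a6, a calcium-binding protein gene, stood at 16.1 CPM against 98.1 CPM and 34.9 CPM, ratios of 0.164 and 0.46. Its level in Sox2-positive cells was 298 CPM. Cldn10, a claudin gene, stood at 38.96 CPM against 175 CPM and 104 CPM, ratios of 0.223 and 0.375. Mycl, a gene of the MYC family, had 7 UMIs, with ratios of 0.131 and 0.299, and stood at 54.3 CPM in Sox2-positive cells. Rspo1, a secreted WNT enhancer, had 8 UMIs, with ratios of 0.193 and 0.265. Kcnk2, Pdlim2, Tgfb3, Metrnl, Cavin2, Selenop, Tppp3, Gm32585, Fgfbp1 and Cd55 made up the rest of the 15 lowest. Their ratios against all other kept cells ran from 0.229 to 0.282. That comparison holds cells with a Sox2, Scgb3a2 or Ager UMI. In Sox2-positive cells Kcnk2, Cavin2 and Cd55 stood at 69.0, 36.7 and 29.9 CPM. Tgfb3, a TGF-beta ligand, and Tppp3, a tubulin-associated protein of ciliated cells, were also among the 10 lowest against other distal cells, at 0.317 and 0.331.

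**Figure D3:**
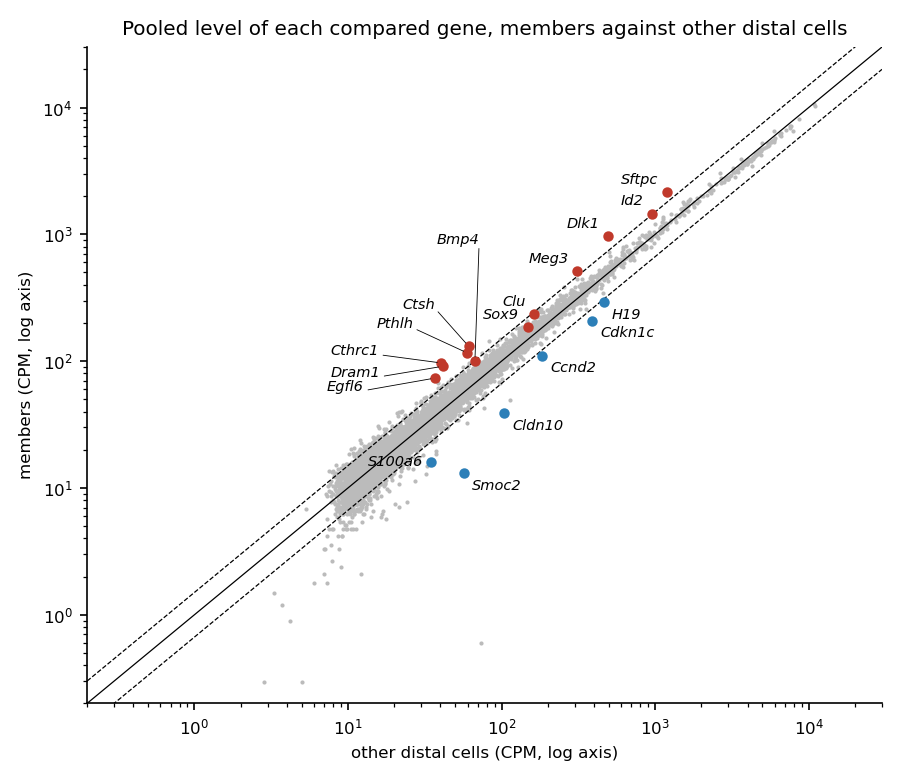
Each point is 1 compared gene outside the rule, with its pooled level in other distal cells on the horizontal axis and in the 250 members on the vertical axis, both in CPM on log axes; the solid line marks equal levels and the dashed lines a ratio of 1.5 either way. Dlk1, Cthrc1, Dram1 and Ctsh lie above the upper dashed line, and Smoc2, S100a6, Cldn10 and Cdkn1c below the lower one; the single point far below it is the platelet gene Pf4.

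Genes of surfactant and lamellar bodies outside the rule were split. Of 15 listed genes 8 were compared, and 3 were at least 1.5-fold higher against other distal cells, namely Sftpc, Ctsh and Dlk1, of which Dlk1 is not a surfactant gene. Those at or below a ratio of 1.5 were Lpcat1, Atp11a, Atp8a1 and Pcyt1a, which serve phospholipid transport and synthesis, and Ap3b1, a subunit of the AP-3 adaptor of lysosome-related organelles, with ratios from 0.77 to 1.23. None was lower past 1.5. The median log2 ratio was 0.29 against other distal cells and 0.28 against all other kept cells. Of 26 other type 2 genes 13 were compared, and Dram1, Egfl6 and Lgi3 passed 1.5 against other distal cells, with none lower and a median log2 ratio of 0.36. Lgi3, which encodes a secreted leucine-rich protein, stood at 54.4 CPM against 34.9 CPM, a ratio of 1.56 (1.30 to 1.86). Cxcl15, the lung chemokine lungkine, stood at 113 CPM against 79.4 CPM, a ratio of 1.42. Etv5, an FGF-induced factor, stood at 268 CPM against 227 CPM, a ratio of 1.18, and Fabp5, a fatty acid binding protein, at 1.08. Muc1, a membrane mucin of the apical surface, had a ratio of 0.82 (0.57 to 1.16).

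No compared gene of lipid synthesis passed 1.5 against other distal cells. Over all compared genes 1.48% were higher and 2.32% lower in that comparison. A count of 0 among 27, 13 or 11 genes is near those shares. None of 27 compared genes of sterol and fatty acid synthesis passed it in either direction, and the summed level of all 32 listed genes was 860 CPM against 849 CPM in other distal cells, a ratio of 1.01 (0.972 to 1.06). Acly, which supplies cytosolic acetyl-CoA, stood at a ratio of 0.74 and Srebf1, the lipogenic transcription factor, at 1.29 (0.90 to 1.81). None of 13 compared phospholipid synthesis genes passed 1.5, and the 17 listed genes had a summed ratio of 1.07 (1.0005 to 1.15). Of 23 lysosomal genes Ctsh and Hexa passed it, Hexa at 1.53 (1.04 to 2.22), and the median log2 ratio was 0.21. Of 11 glycogen genes none passed it against other distal cells, and Pygl and Pygb, glycogen phosphorylases, had ratios of 0.63 each against all other kept cells and 0.77 and 0.73 against other distal cells.

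Distal tip genes were expressed in the 250 cells, and Sox9, Id2 and Bmp4 stood above their levels in other distal cells. Sox9, the transcription factor of the tip, was detected in 200 of the 250 cells (80.0%) and in 63.4% of other distal cells. At 5000 UMIs per cell Sox9 was detected in 54.2% and 42.5%. Its level was 185 CPM against 123 CPM in all other kept cells and 148 CPM in other distal cells, ratios of 1.51 and 1.253 (1.14 to 1.37). Id2, an inhibitor of basic helix-loop-helix factors, was detected in 244 cells, with a median of 16 UMIs and a highest of 81. Its level was 1457 CPM against 780.2 CPM and 947 CPM, ratios of 1.87 and 1.54 (1.49 to 1.59). Bmp4, a secreted ligand of the tip, was detected in 132 cells, at 100.2 CPM against 49.1 CPM and 67.0 CPM, ratios of 2.04 and 1.495 (1.31 to 1.70). Dusp6, a phosphatase induced by FGF signalling, stood at 66.6 CPM against 38.6 CPM in other distal cells, a ratio of 1.73, while Spry2, another FGF feedback gene, had a ratio of 1.07 (0.90 to 1.27) and Fgfr2, the receptor, 0.89 (0.78 to 1.004). Ccnd2, the gene of cyclin D2, went the other way at 110.3 CPM against 184 CPM, a ratio of 0.60 (0.54 to 0.67). Of 21 compared tip genes, 3 were higher past 1.5 and 1 lower against other distal cells, the higher ones being Sftpc, Dusp6 and Id2, and the median log2 ratio was 0.24. Against distal cells with Sox9 but no Sftpa1 UMI, 1 of the 21 tip genes was higher past 1.5, none was lower, and the median log2 ratio was 0.10. The list shares Sftpc and Clu with the type 2 lists.

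Signalling genes outside these lists differed singly. Against other distal cells, Dusp6 and Fgfr3 were the only 2 of 13 compared FGF genes past 1.5, Fgfr3 at 4.16 CPM against 9.16 CPM, a ratio of 0.45. Tgfb2 stood at 90.1 CPM against 128 CPM, a ratio of 0.70 (0.62 to 0.80). Wnt7b, the epithelial WNT ligand, stood at 166 CPM against 129 CPM, a ratio of 1.28 (1.16 to 1.41), and Shh at 0.84 (0.70 to 1.001). The knockout label names the LEF/TCF family without saying which of its 4 genes were targeted. Tcf7l1 and Tcf7l2 were each at 20.2 CPM in the 250 cells, with ratios of 1.36 (1.01 to 1.81) and 1.15 (0.86 to 1.51). Tcf7 had 23 UMIs and Lef1 14. The WNT target Sp5 had a ratio of 1.36 (1.04 to 1.75), Axin2 1.10 (0.73 to 1.64) and Znrf3 0.71 (0.54 to 0.91). Nkx2-1 was detected in 240 of the 250 cells at 374 CPM against 351 CPM, a ratio of 1.06, and Foxa1 stood at 24.4 CPM against 37.5 CPM, a ratio of 0.65 (0.51 to 0.82).

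Alveolar type 1 genes were mixed. Of 19 compared genes none was higher past 1.5 against other distal cells and 4 were lower, with a list median log2 ratio of -0.27. The 4 were S100a6, Clic3, Sema3e and Ahnak, with ratios from 0.46 to 0.60. The summed level of the 29 listed genes was 1600 CPM against 1567 CPM, a ratio of 1.02 (0.990 to 1.05). Against distal cells with Sox9 but no Sftpa1 UMI, 3 type 1 genes were lower past 1.5 and the median log2 ratio was 0.003. Pdpn, a surface glycoprotein of type 1 cells that the distal tip also expresses, was higher at 62.8 CPM against 43.4 CPM, a ratio of 1.45 (1.23 to 1.70). Hopx had 10 UMIs and Aqp5, the water channel of type 1 cells, none. Of 24 listed airway genes 6 were compared, and 4 were lower past 1.5 against other distal cells, with none higher. The 4 were Aldh1a1, Tppp3, Cldn10 and Tnfrsf19, at ratios of 0.30 to 0.59. The summed level of the list was 334 CPM against 362 CPM, a ratio of 0.92 (0.863 to 0.985). Against distal cells with Sox9 but no Sftpa1 UMI, the summed ratio was 1.03 (0.959 to 1.11). There 3 of the airway genes were lower past 1.5 and 1 higher. Mgst1, a glutathione transferase listed with airway genes, stood at 255 CPM against 181 CPM in other distal cells, a ratio of 1.41. The gates removed cells with a detected Sox2, Scgb3a2 or Ager UMI in both groups of this comparison. Airway or type 1 cells without such a UMI could remain, and their part in these ratios was not tested.

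**Figure D4:**
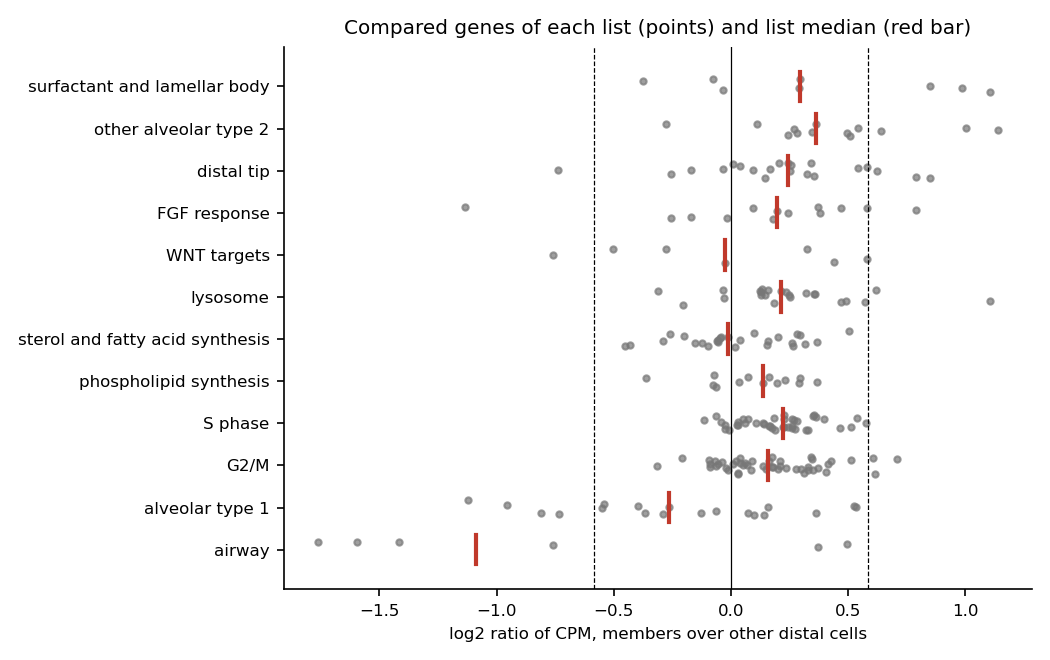
Each point is 1 compared gene, placed by its log2 ratio of pooled CPM in members over other distal cells; rows are gene lists, red bars list medians, and dashed lines a ratio of 1.5 either way. Medians run from -1.09 for airway genes over -0.01 for sterol and fatty acid synthesis to 0.36 for other type 2 genes.

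Summed cell cycle genes stood slightly higher in the 250 cells than in other distal cells, but not higher than in Ager-positive distal cells. A UMI of Mki67 or Top2a, both expressed in dividing cells, was found in 66.8% of members (60.6 to 72.6) and 56.2% of other distal cells (53.0 to 59.2), at the unequal depths given above, and in 68.2% of Ager-positive distal cells and 74.7% of the 83 eligible cells not chosen. At 5000 UMIs per cell, Mki67 was detected in 19.3% of members (14.6 to 24.7) and 16.2% of other distal cells (13.9 to 18.6), a difference not detectable at this depth. The summed level of 42 S-phase genes was 3141 CPM against 2716 CPM, a ratio of 1.16 (1.13 to 1.18), and that of 52 G2/M genes 6300.27 CPM against 5599 CPM, a ratio of 1.13 (1.11 to 1.14). Against Ager-positive distal cells the summed ratios were 0.989 (0.969 to 1.01) and 0.974 (0.960 to 0.988). Cdkn1c, a cyclin-dependent kinase inhibitor, stood at 208 CPM against 388 CPM in other distal cells, a ratio of 0.54 (0.50 to 0.58).

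Several markers of other cell types were scarce. In the 250 cells Col1a1 had 2 UMIs, Col3a1 none, Pecam1 2, Cdh5 none, Ptprc none and Pf4 2. The endothelial list of 10 genes, of which 1 reached the minimum for comparison, summed to 41.3 CPM in members. It summed to 37.5 CPM in other distal cells, a ratio of 1.10 (0.904 to 1.33). Vim, which the distal epithelium also expresses, stood at 210.3 CPM against 184 CPM in other distal cells. The blood list summed to 3.57 CPM in members and 90.1 CPM in other distal cells, where Pf4 and Ppbp, platelet genes, made up most of it. Without thinning, Pf4 was detected in 0.887% of the 1015 other distal cells, so few cells held these UMIs. The list summed to 5.08 CPM in distal cells with Sox9 but no Sftpa1 UMI. In Ager-positive distal cells it was 5.33 CPM and in Sox2-positive cells 5.19 CPM. Cells with at least 4 Xist UMIs and a Y-linked UMI, a mark of 2 cells in 1 droplet or of free RNA, were 3 of the 250 members (1.20%, 0.248 to 3.47), 1.28% of other distal cells and 10.1% of Sox2-positive cells. Without those cells the ratio of Ctsh against all other kept cells was 2.21 and that of Clu 1.57.

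Closer comparison groups kept some differences and narrowed others. The 83 eligible cells not chosen had a median of 13175 UMIs. Without thinning, Sox9 was detected in 77.1% of them, Id2 in 97.6%, and Dlk1 and Sftpc in 92.8% each. Members had 80.0%, 97.6%, 97.2% and 97.6%. Ctsh was detected in 55.4% of those cells against 68.4% of members, and Clu in 50.6% against 64.0%. Median levels per cell were 525 CPM against 809 CPM for Dlk1 and 478 CPM against 1158 CPM for Sftpc. Against 580 distal cells with Sox9 but no Sftpa1 UMI, 111 genes were higher past 1.5 (1.63%) and 140 lower (2.06%). Ctsh had a ratio of 1.95 (1.71 to 2.22), Dlk1 1.73, Cthrc1 2.02, Dram1 1.93 and Sftpc 1.63, while Id2 had 1.28 and Clu 1.26. Smoc2 was lowest in that order, at 0.300. Against 1096 Ager-positive distal cells, 58 genes were higher (0.851%) and 233 lower (3.42%). There Pthlh had a ratio of 2.76, Dram1 2.29, Dlk1 1.999, Ctsh 1.81 (1.62 to 2.02) and Id2 1.67, while Sftpc had 1.13 (1.11 to 1.16) and Clu 1.17 (1.08 to 1.26). With rule and gate genes left out, the lowest ratio was again that of Smoc2, at 0.138, and of 19 type 1 genes 9 were lower past 1.5. Against 584 Sox2-positive cells, 330 genes were higher (4.84%) and 889 lower (13.1%). Outside the rule and gate genes the highest ratios were those of Bmp4 at 10.96 (8.498 to 14.3) and Dlk1 at 10.3, and the lowest those of Mycl at 0.038 and S100a6 at 0.054.

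The members varied among themselves. Of the 250 cells, the 171 with a Sftpb UMI had a median of 13651 UMIs and the 79 without one 10233. Clu stood at 275 CPM with Sftpb and 123 CPM without, a ratio of 2.25 (1.83 to 2.78), and Ctsh at 149 CPM and 82.0 CPM, a ratio of 1.81 (1.41 to 2.37). Dlk1 had a ratio of 1.45, while Sftpc, at 2133 CPM and 2158 CPM, had a ratio of 0.989 (0.938 to 1.04) and Dram1 1.05 (0.810 to 1.38). Sftpb is a ranking gene, so cells without it had qualified through the other ranking genes, and Sftpa1 stood at 171 CPM with Sftpb and 234 CPM without, a ratio of 0.734 (0.620 to 0.870). Summed G2/M genes were also higher with Sftpb, at a ratio of 1.29 (1.249 to 1.33), and the part of the choice of cells, of depth and of the cell cycle in these differences was not tested. The 200 cells with a Sox9 UMI had more Id2 than the 50 without, 1576 CPM against 854 CPM, a ratio of 1.85 (1.68 to 2.03), and more Bmp4, at a ratio of 3.51 (2.19 to 6.01). Their ratios for Ctsh, 1.31 (0.991 to 1.76), and Clu, 1.21 (0.991 to 1.496), had intervals that included 1. Cells with a Mki67 or Top2a UMI had more Ctsh, at a ratio of 1.60 (1.26 to 2.04), and more Meg3, a long non-coding RNA, at 1.84 (1.62 to 2.08). Their ratio for Sftpc was 0.957. Median depth was 13143 UMIs with Sox9 and 10870.5 without, and 13651 UMIs with Mki67 or Top2a and 11165 without. The part of depth in these ratios was not tested. Sftpc itself ranged widely, from 0 to 235 UMIs, with quartiles of 499 and 3106 CPM.

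To keep the sorting by Sftpa1 apart from the measurement, each cell's UMIs were split at random into 2 parts. Cells of the gated distal group were sorted by Sftpa1 UMIs in the first, and levels were read in the second. The gates on Sox2, Scgb3a2, Ager and Epcam used all UMIs of a cell, so that choice was not kept apart. The group held 1053 cells with 0, 142 with 1 and 70 with 2 or more Sftpa1 UMIs in the first part. Their Sftpa1 level in the second part was 27.1, 88.8 and 266 CPM, so cells with more Sftpa1 in the first part also had more in the second. Sftpb stood at 34.0, 76.5 and 108 CPM. Ctsh stood at 63.8 (57.7 to 70.5), 111 (91.3 to 134) and 140 (109 to 177) CPM. Dlk1 stood at 509, 789 and 1077 CPM and Id2 at 964, 1286 and 1566 CPM, each step beyond its counting interval. Clu was alike in the first 2 groups, at 170.4 and 167 CPM, and stood at 310 CPM in the third. Sftpc stood at 1255, 1978 and 1996 CPM, with the step between the first and the second group. Cdkn1c was lower with more Sftpa1, at 376, 216 and 174 CPM, and Ccnd2 at 179, 133 and 112 CPM. The median depth of the 3 groups was 10896, 12995 and 13570 UMIs, and its part in these levels was not tested.

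**Figure D5:**
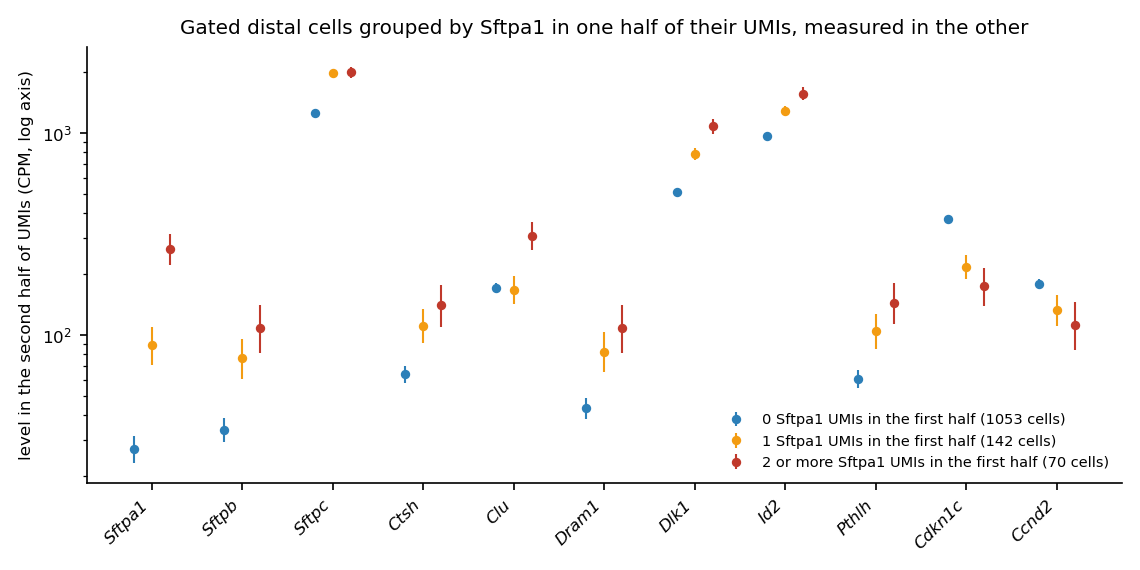
Points give levels in the second part of each cell's UMIs, in CPM on a log axis with exact 95% counting intervals, for gated distal cells with 0, 1 or at least 2 Sftpa1 UMIs in the first part (1053, 142 and 70 cells). Ctsh, Dram1, Dlk1, Id2 and Pthlh stand higher with more Sftpa1, Cdkn1c and Ccnd2 lower, and Clu is higher in the third group only.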

How the data were processed

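UMIs were counted per gene and cell by the authors, who deposited raw counts for the control library as a matrix of filtered barcodes; per the submitters' processing notes Cell Ranger, Seurat and build mm10 were used, without stated roles, and the file header gives software version 3.0.1. The counter's annotation is not given in the sources used here. From the counts, cells were filtered and chosen by the rule stated above; no doublet caller was run, and the 30000 UMI limit and the Xist and Y-linked check stand in its place. UMIs were pooled over cells to CPM, with exact Poisson, conditional binomial (ratios) and Clopper-Pearson (shares) 95% intervals in Python 3.11.15 with scipy 1.17.1; these cover counting error only, and a count of 0 was read as allowing 3. Ratios and intervals were checked on pooled counts simulated with Poisson error alone, which hold no spread between cells. Named genes are the 15 highest and 15 lowest ratios among genes outside the rule and gates of at least 10 CPM with under 25% of the members' UMIs in 1 cell, 10 in further comparisons, and the largest ratios and textbook examples of each list. Members, lists and comparisons were chosen with earlier results of these data known. Alternatives were the cell filters, thinning, scaling, the comparison cells and the gene minimum. Reads were counted at 3′ ends, and each ratio compares 1 gene, or 1 summed list, between groups of cells.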

Additional observations from a re-analysis of the deposited data

How the results depend on the processing

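Of 21 alternatives to the comparison with all other kept cells, 20 gave the counts of higher and lower genes, 18 or 19 the list medians, and 15 the ratios of Ctsh, Clu, the summed cycle genes and 82 further genes; 4 were chosen after seeing the data (members with 2 or more Sftpa1 UMIs, no cells holding both a Y-linked UMI and at least 4 of Xist, Epcam-positive comparison cells, and the surfactant list without Dlk1, which gave a median log2 ratio of 0.23). No paired analysis was possible because there was 1 library. Ctsh, Clu and the medians of the type 2, tip, type 1 and airway lists kept their direction in every alternative that gave them. Choosing cells after thinning gave 134 of the same 250 cells, choosing without gates 145, and choosing on 1 random part of the UMIs 150.

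The counts of higher and lower genes, 77 and 325, moved with the cut and the depth: 367 and 938 with the ratio threshold lowered to 5/4, 21 and 90 with it raised to 2, 137 and 651 with genes of at least 5 CPM, 49 and 133 at 20 CPM, and 1401 and 1957 with any UMI. They were 131 and 510 in the upper part of the members, and 223 and 651 in Xist-high cells. Higher genes numbered 118 on split UMIs, 116 without gates and 135 in cells of 5000 to 15000 UMIs; lower genes numbered 198 after thinning and 158 against other distal cells.

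The surfactant list median was 0.74 with genes of at least 20 CPM. Against other distal cells the other type 2 median was 0.36 and the airway median -1.09. The S-phase ratio, 1.12, was 1.15 with equal cell weights, 1.22 on split UMIs, 1.09 in the upper part, 1.20 without gates, 1.15 at 5000 to 15000 UMIs, 1.16 without Xist, 1.16 against other distal cells and 1.17 with 2 or more Sftpa1 UMIs. The G2/M ratio, 1.06, turned to 0.99 at 5000 to 15000 UMIs, and was 1.08 after thinning, 1.10 in the upper part, 1.15 without gates, 1.02 without Xist, 1.13 in Xist-high cells, 1.13 against other distal cells and 1.09 with 2 or more Sftpa1 UMIs. Clu, 1.60, was 1.77 after thinning, 1.78 on split UMIs, 2.08 without gates, 1.48 in Xist-high cells and 1.45 against other distal cells. Ctsh, 2.24, was 2.58 without gates, 1.98 without Xist and 2.84 in Xist-high cells. The cause of these shifts was not tested.

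Of 1230 further gene ratios, 1012 lay within the counting interval of the reported value, 214 outside it in the same direction and 4 reversed: Lmo7 at 1.03 after thinning, Plk1 at 0.914 and Tagln at 1.01 on split UMIs, and Tspan1 at 1.29 against other distal cells. One library limits every value to these cells, and pooled UMIs set a floor of 0.892 CPM in the members.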

Other observations

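Imprinted genes, chosen here after their values were seen, differed in both directions. Dlk1 and Meg3 lie next to each other on chromosome 12, and Meg3 stood at 515 CPM in the 250 cells against 312 CPM in other distal cells, a ratio of 1.65 (1.56 to 1.75), beside 1.98 for Dlk1. Mest, expressed from the paternal copy, stood at 51.8 CPM against 32.3 CPM, a ratio of 1.60 (1.33 to 1.92), and Peg3 at 1.13 (1.04 to 1.23). H19, a growth-restraining RNA expressed from the maternal copy, stood at 291 CPM against 462 CPM, a ratio of 0.63 (0.59 to 0.68), beside 0.54 for Cdkn1c. Grb10 had a ratio of 0.85 (0.80 to 0.90) and Plagl1 0.74 (0.58 to 0.94). Igf2r had 0.92 (0.67 to 1.252). Igf2 had 9 UMIs in the members.

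Among 17 compared immediate early and dissociation stress genes none passed 1.5 in either direction against other distal cells. Ier2 had a ratio of 1.29 (1.21 to 1.39) and Klf6 0.78 (0.71 to 0.86). Epithelial keratins were lower than in other distal cells but short of 1.5, with Krt18 at 258 CPM against 326 CPM, a ratio of 0.79 (0.73 to 0.85), and Krt8 at 0.85 (0.77 to 0.94), while Cldn3, a tight junction gene, stood at 316 CPM against 244 CPM, a ratio of 1.30 (1.21 to 1.39). Among 5 compared antigen presentation and innate defence genes none passed 1.5, with H2-D1 at 1.28 (1.04 to 1.55) and Wfdc2, a secreted protease inhibitor, at 1.12 (1.07 to 1.17). Cebpa, the type 2 transcription factor, had 30 UMIs in 29 of the 250 cells.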
